A study of Mus musculus with 8 samples.

Results

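Open chromatin was compared between T cells lacking Tet1 and Tet3 and control T cells, in the culture that received both TGF-β and IL-2. The comparison used every library of that culture: 2 libraries labelled control and 2 labelled Tet1/3 cDKO (conditional double knockout), 4 of the 8 ATAC-seq libraries of the series. ATAC-seq uses a transposase that inserts sequencing adapters where DNA is open, and a peak caller lists the places where insertions pile up. All 4 libraries came from sorted naive CD4 T cells of mouse spleen, activated for 48 h with antibodies to CD3 and CD28, with TGF-β at 20 ng/mL and IL-2 at 100 U, and tagmented at 90000 cells a library. The labels call this induced Treg differentiation. Cre driver, deleted exons, strain, age, and any floxed allele or Cre in the controls: none is stated in the labels. The design text calls the replicates biological, without saying which animals they came from.

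TET enzymes oxidise 5-methylcytosine, mostly at CpG dinucleotides, which starts the removal of DNA methylation at enhancers and promoters. Tet2, the third member of the family, is not targeted here. In CD4 T cells TET activity is known for keeping Foxp3 enhancers demethylated, which stabilises regulatory T (Treg) cells. TGF-β acts through SMAD2 and SMAD3 to induce Foxp3 in naive cells, and IL-2 acts through its receptor, JAK1, JAK3 and STAT5.

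Each library has a deposited list of peaks. A peak's rank is its place in that list by −log10 p, and rank 1 is the strongest peak. Because the lists differed in length, each was cut to the 65811 strongest peaks, the length of the shortest list. Peaks of all 8 lists that shared at least 1 bp were merged into union regions. A region is called higher in cDKO when both cDKO lists hold it and neither control list does, and lower in the reverse case. "Not listed" means below this cut-off or not called, so a weaker peak may still be there. With 2 libraries against 2, the smallest two-sided permutation p is 0.333, and the differences are described here without a test. In a population of cells, a site open in fewer cells and a site less open in each cell cannot be told apart.

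The 4 libraries were not equally alike, and this bears on every count below. The deposited lists held 113317 and 65811 peaks for control replicates 1 and 2, and 96752 and 115250 peaks for cDKO replicates 1 and 2. The second control library stood apart, with the broadest peaks (median 335 bp, against 221 to 236 bp in the other three) and the lowest median fold over background in the equal-number lists (6.25, against 8.35 to 8.95). The Jaccard index, the share of regions common to a pair of libraries, was 0.780 between the cDKO libraries and 0.713 between the control libraries. Between control replicate 1 and cDKO replicate 2 it was 0.719, no lower than between the control libraries. The other 3 pairs across genotype gave 0.663, 0.675 and 0.693.

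Peaks at genes that define T cells were listed as labelled. Of the 12 T cell receptor and coreceptor genes with a RefSeq promoter window, 9 had it listed in all 4 libraries. The promoter of Cd3g, a chain of the CD3 complex, had ranks of 2932 and 5979 in control and 4027 and 5311 in cDKO. Promoters of other cell types were mostly not listed: none of the 4 lists held 5 of the 8 B cell promoters, 8 of 9 for CD8 and NK cells, 6 of 10 for myeloid and dendritic cells, or 8 of 9 for erythroid cells. The globin promoters (Hba-a1, Hba-a2, Hbb-bs, Hbb-bt) were among those in no list. Cd8a, which encodes a CD8 coreceptor chain, had its promoter at ranks 60289 and 55147 in the cDKO libraries and in neither control list. The union regions assigned to B cell genes numbered 33 and 32 in control and 30 and 31 in cDKO. For CD8 and NK cell genes they were 25 and 27 against 24 and 30, for myeloid genes 65 and 68 against 60 and 68, and for erythroid genes 16 and 16 against 21 and 22. The part of other cell types in the calls was not tested.

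Most called regions lay away from promoters, but the few that covered one allow the underlying DNA to be read. The windows below are RefSeq promoter sequences (GRCm38.p6, 250 bases before to 50 after a gene's start, 5′ to 3′ on the gene's strand), with each CpG in capitals because CpG is the substrate of TET enzymes. The first pair lay under regions higher in cDKO, the second pair under regions lower in cDKO, and the last pair under regions that all 4 libraries listed and whose ranks separated by genotype.
Pde6h, chr6:136954273-136954572, plus strand: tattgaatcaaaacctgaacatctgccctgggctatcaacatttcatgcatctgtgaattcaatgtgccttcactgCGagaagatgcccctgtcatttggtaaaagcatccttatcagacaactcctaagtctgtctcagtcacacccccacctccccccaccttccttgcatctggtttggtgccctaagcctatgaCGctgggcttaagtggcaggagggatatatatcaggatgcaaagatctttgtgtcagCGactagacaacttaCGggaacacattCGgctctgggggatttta
Meis1, chr11:19018920-19019219, minus strand: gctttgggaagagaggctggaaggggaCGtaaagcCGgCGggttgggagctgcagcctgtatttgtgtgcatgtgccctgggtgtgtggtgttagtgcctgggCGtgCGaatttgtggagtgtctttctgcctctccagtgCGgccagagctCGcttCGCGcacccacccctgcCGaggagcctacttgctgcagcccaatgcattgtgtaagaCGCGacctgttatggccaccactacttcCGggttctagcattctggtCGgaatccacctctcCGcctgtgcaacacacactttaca
Tlx3, chr11:33203539-33203838, minus strand: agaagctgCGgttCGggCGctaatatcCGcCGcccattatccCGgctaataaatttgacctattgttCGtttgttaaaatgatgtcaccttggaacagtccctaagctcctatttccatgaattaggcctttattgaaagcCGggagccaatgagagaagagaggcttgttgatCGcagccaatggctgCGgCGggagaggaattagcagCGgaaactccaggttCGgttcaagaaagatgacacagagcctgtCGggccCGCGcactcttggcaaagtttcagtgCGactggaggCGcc
C3, chr17:57228087-57228386, minus strand: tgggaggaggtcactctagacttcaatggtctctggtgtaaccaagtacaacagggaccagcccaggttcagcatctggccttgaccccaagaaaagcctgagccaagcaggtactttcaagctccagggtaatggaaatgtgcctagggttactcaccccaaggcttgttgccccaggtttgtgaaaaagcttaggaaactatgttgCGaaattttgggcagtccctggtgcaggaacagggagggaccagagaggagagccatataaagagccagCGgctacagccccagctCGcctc
Napepld, chr5:21701573-21701872, minus strand: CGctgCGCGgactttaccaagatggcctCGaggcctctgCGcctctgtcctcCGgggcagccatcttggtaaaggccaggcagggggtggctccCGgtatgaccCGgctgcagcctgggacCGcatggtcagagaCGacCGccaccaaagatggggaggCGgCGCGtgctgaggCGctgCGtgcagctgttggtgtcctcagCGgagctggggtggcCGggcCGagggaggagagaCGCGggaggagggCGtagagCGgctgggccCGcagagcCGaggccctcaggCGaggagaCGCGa
Tle4, chr19:14598134-14598433, minus strand: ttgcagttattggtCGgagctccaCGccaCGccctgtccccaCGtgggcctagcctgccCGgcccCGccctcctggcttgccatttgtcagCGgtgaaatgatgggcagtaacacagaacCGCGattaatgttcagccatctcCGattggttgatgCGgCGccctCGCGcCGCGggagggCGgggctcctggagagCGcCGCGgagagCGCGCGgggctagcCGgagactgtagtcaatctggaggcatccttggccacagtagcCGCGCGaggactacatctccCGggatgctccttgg
The Pde6h window holds 5 CpG and the C3 window 3, while the Meis1 window holds 15 and the Tlx3 window 18. The Napepld and Tle4 windows hold 28 each.

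The targeted genes were examined first. Both Tet1 and Tet3 kept listed peaks along their gene bodies in the cDKO libraries. At Tet1 (chromosome 10, 62804570 to 62887469), 7 and 8 regions inside the gene were listed in the control libraries and 7 and 8 in the cDKO libraries. At Tet3 (chromosome 6, 83362373 to 83457208), the numbers were 11 and 10 in control and 11 and 11 in cDKO. The region at the end of Tet3 that holds base 83457208 ranked 13494 and 5764 in control and 6531 and 10073 in cDKO, with overlapping ranks. A peak list does not show whether an exon is gone, so these values do not check the deletion. Tet1 had 1 region called lower (chr10:62883836-62884338, ranks 52362 and 56733 in control, not listed in cDKO). Tet3 had 1 called higher (chr6:83421630-83422134, ranks 44243 and 59495 in cDKO) and 1 called lower (chr6:83423683-83424361, ranks 58186 and 29007 in control). Tet2 also had 1 of each, both in its gene body. Its higher region (chr3:133518707-133519333) ranked 29449 and 29248 in cDKO, and its lower region (chr3:133515186-133515503) ranked 32403 and 36271 in control.

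Foxp3, the transcription factor that defines Treg cells, carried little listed chromatin in any library. Each library listed 1 region assigned to it, and no region was called. The region chrX:7586226-7586968, inside the gene, ranked 63512 in control replicate 1 and 43843 and 50327 in cDKO, and was not listed in control replicate 2. That library instead listed chrX:7578832-7579840, which overlaps the upstream end of the gene, at rank 50929. Both cDKO libraries thus ranked the inner region ahead of control, but 1 control library listed it too.

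At Il2ra 1 of 17 regions was called and at Il2 1 of 9, beside 4.05% higher and 4.46% lower over all regions. Il2ra, the high-affinity IL-2 receptor chain, had 14 and 14 regions listed in control and 16 and 14 in cDKO. The called region was higher, chr2:11628237-11628630, which lies 14.4 kb outside the gene. It ranked 48054 and 44769 in cDKO and was in neither control list, even at full length. A nearby region, chr2:11641332-11641586, moved the other way: its ranks were 25923 and 34388 in control and 58947 and 51428 in cDKO, a log2 rank shift of −0.88 with no overlap between genotypes. (A log2 rank shift is the mean log2 rank in control minus that in cDKO, so it is positive where cDKO ranks better.) Near Il2 itself, the called region was lower (chr3:37171000-37171772, 45.4 kb away, ranks 56741 and 44931 in control). The strongest peak nearest Il2, chr3:37128160-37128717, ranked 5864 and 8755 in control and 14742 and 8489 in cDKO, and these overlapped.

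Across the genome 3461 regions were called higher and 3808 lower in cDKO. These are 4.05% and 4.46% of the 85403 regions listed by any of the 4 libraries. All 4 libraries listed 45470 regions, and 11761 were listed by exactly 2, of which the calls were 29.4% (higher) and 32.4% (lower). The 4 ways of listing a region in 1 library of each genotype gave 1475, 1074, 1062 and 881 regions, so each genotype pattern was more frequent than each mixed pattern. The near balance of higher and lower depended on cutting the lists: with the lists as deposited, 6350 regions were higher (4.57% of regions listed) and 1633 lower (1.18%), so that 79.5% of calls were higher in place of 47.6%. Called regions were mostly weak peaks, with a median worst rank of 56890 (higher) and 54886 (lower).

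Most calls were differences of strength around the cut-off and not of presence. Of the higher regions, 2725 (78.7%) held a weaker peak further down the list of control replicate 1. Of the lower regions, 1649 (43.3%) held a weaker peak in both deposited cDKO lists, and 1513 in 1 of them. A stricter set held no peak of the other genotype at any depth, 736 higher and 646 lower regions (0.862% and 0.756% of all regions). The deposited lists behind that condition are shorter for control replicate 2 than for the cDKO libraries, so it is easier to meet for higher regions. The plot of ranks by library shows the strongest 12 of these in each direction.

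**Figure D1:**
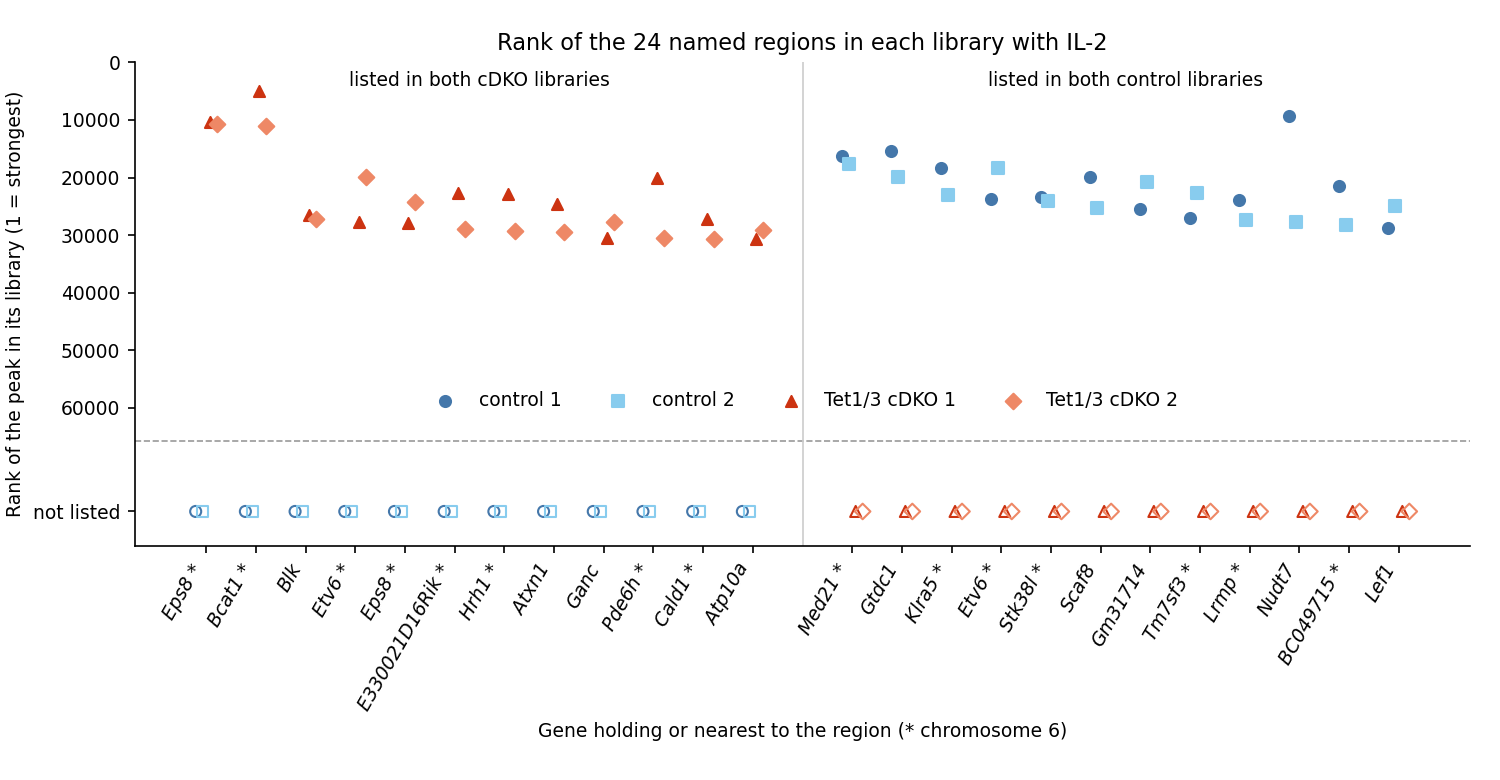
Rank of the strongest peak (y axis, 1 at the top) in each of the 4 libraries with IL-2, for the 12 regions per direction that were called, were in no deposited list of the other genotype and had the best worst rank. Filled symbols are listed peaks and open symbols lie in the "not listed" band, the dashed line is rank 65811, and asterisks mark the 15 regions on chromosome 6.

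The strongest region listed only in cDKO lay inside Eps8, which encodes a regulator of actin and receptor signalling. This region, chr6:137541325-137541959, ranked 10411 and 10709 in the cDKO libraries, with folds over background of 12.6 and 11.7. A second Eps8 region, chr6:137491684-137492159, ranked 27873 and 24316. The next strongest, chr6:145093014-145093770, lay 17.2 kb from Bcat1, the cytosolic branched-chain aminotransferase, and ranked 5020 and 11043. Without IL-2 it was again listed only in cDKO, at ranks 4898 and 5829. A region inside Blk, a Src-family kinase best known from B cells, ranked 26424 and 27190 (chr14:63377283-63377745). Without IL-2 the control libraries listed it as well, at 53748 and 35625. The rest of the 12 lay at Etv6, E330021D16Rik, Hrh1, Atxn1, Ganc, Pde6h, Cald1 and Atp10a.

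Of the regions found only in control, the strongest was chr6:146671361-146671917, 21 kb from Med21, which encodes a Mediator subunit. It ranked 16259 and 17615 in control, and 20359 and 21276 in the control libraries without IL-2, and was in no cDKO list. Neighbours on chromosome 6 lay near Stk38l, an NDR-family kinase gene (ranks 23462 and 24000), and inside Tm7sf3 (27020 and 22667). A region inside Gtdc1 on chromosome 2 ranked 15309 and 19825 in control. A region inside Lef1, the TCF-family factor of naive T cells, ranked 28726 and 24959 (chr3:131146814-131147039). A region inside Klra5 ranked 18308 and 23032, and since Klra5 belongs to a family of near-identical Ly49 receptor genes, its reads may come from a relative. Etv6, a transcriptional repressor of the ETS family, held regions of both kinds: chr6:134156227-134156705 only in cDKO (27688 and 19954) and chr6:134173473-134173958 only in control (23721 and 18354).

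Calls clustered in a few stretches of chromosome. The densest stretch of higher regions was on chromosome 6 between Hrh1, which encodes the histamine H1 receptor, and Atg7, which encodes an enzyme needed to form autophagosomes. Here 9 of the 17 regions assigned to Hrh1 and 7 of the 39 assigned to Atg7 were higher, and 1 (at Atg7) was lower. They ran from chr6:114497133-114497914 to chr6:114629028-114629569, with worst ranks between 29289 and 59518. In the fixed 250-kb window that starts at 114500001, 14 of 36 regions were higher, and 12 of these 14 were also called higher in the comparison without IL-2. None of the 14 was in the cut list of either control library without IL-2. Some had a weak peak further down those lists, such as chr6:114543087-114543616 at rank 86571 in control replicate 2. Next came a window with Bcat1 and Lrmp, a lymphoid-restricted membrane protein gene, where 8 regions were higher and 5 lower of 37. The densest stretch of lower regions, with 9 of 32, lay at Stk38l and Med21.

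Foxp1, a forkhead factor that keeps naive T cells quiescent, had the most regions called lower, 9 of its 81, against 2 higher. Its best, chr6:99344760-99345337, ranked 34538 and 27414 in control. It was followed by Lpp (8 of 76), then Etv6, Sox5 and Pde4d, with 7 each. Among the 7 lower Etv6 regions was one of the strongest peaks to be called, chr6:134078088-134079154, with ranks of 7239 and 6716 in control. Bach2, which represses effector genes, had 6 lower and 2 higher of 77. In all, 104 of 21887 coding genes had at least 3 higher regions and 169 had at least 3 lower regions. These counts stand beside 4.05% higher and 4.46% lower over all regions, and a gene with more regions can reach them more easily. They rest on the equal-number lists, and with the deposited lists 79.5% of calls were higher.

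Several of these genes share a chromosome, and it is the one that carries Tet3. Chromosome 6 held 5.51% of all regions but 10.9% of the strict calls (151 of 1382). In the equal-number lists 5.49% of its regions were higher and 5.27% lower, so that 10.8% were called, against 8.38% elsewhere. For strict calls the shares were 3.21% on chromosome 6 and 1.53% elsewhere. Of the 24 regions named above, 8 of the 12 higher and 7 of the 12 lower were on it. Within 10 Mb of Tet3, the strict share was 3.28% on the distal side and 2.33% on the proximal side, which held only 86 regions. In distal 10-Mb steps from 10 to 50 Mb it was 3.49%, 2.89%, 4.23% and 1.68%. It was highest further out, with 6.39% at 50 to 60 Mb and 7.83% at 60 to 70 Mb. Large rank shifts showed no excess on chromosome 6, which held 4.92% of them. Chromosome 10, which carries Tet1, is in the plot of calls by chromosome, and its shares lie among those of the other autosomes. Whether DNA differences between the genotypes' chromosomes move with these calls was not tested.

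**Figure D2:**
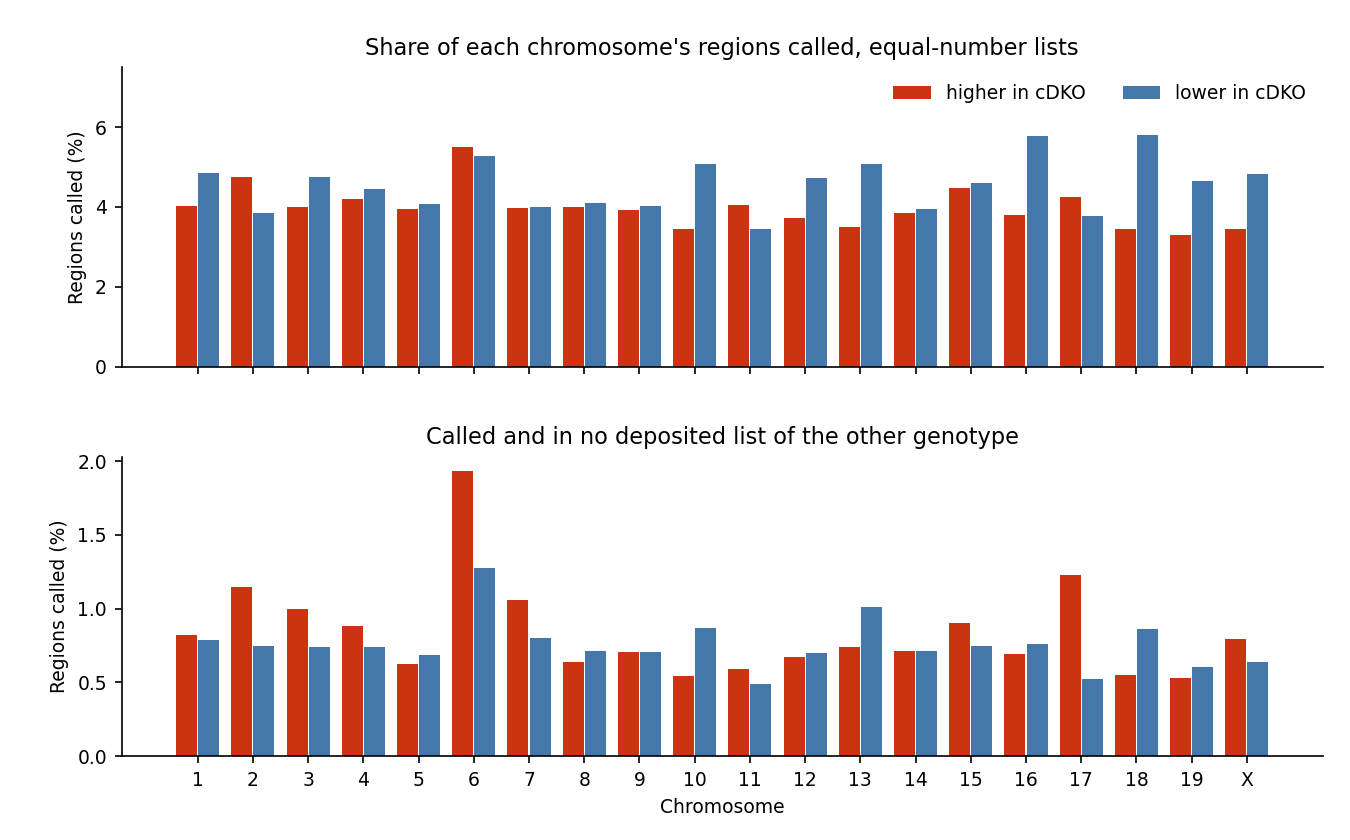
Share of the regions on each chromosome (x axis) that were called higher or lower in cDKO, in percent (y axis), for calls from the equal-number lists (upper) and for calls absent from every deposited list of the other genotype (lower). On chromosome 6, 5.49% of regions were higher and 5.27% lower in the upper panel, and of the chromosomes drawn it has the highest bar of either direction in the lower panel. Chromosome Y, with 38 regions of which 2 were higher in the lower panel's sense, is not drawn.

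Genes were then grouped by role. The share of a list's regions that were called is read against 4.05% higher and 4.46% lower over all regions. Of 17 lists, 4 had more higher than lower regions and 11 had more lower. With the deposited lists 16 had more higher and none more lower, so the balance within a list is tied to the cut and only its place relative to all regions is described. The counts are small and depend on the settings: of the 34 counts (17 lists, each direction), 22 moved by over 1.5 times with lists of 32905 peaks and 32 did without control replicate 1. With regions assigned only within 10 kb of a gene, 2430 regions were higher and 2586 lower of all 62849 so assigned.

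**Figure D3:**
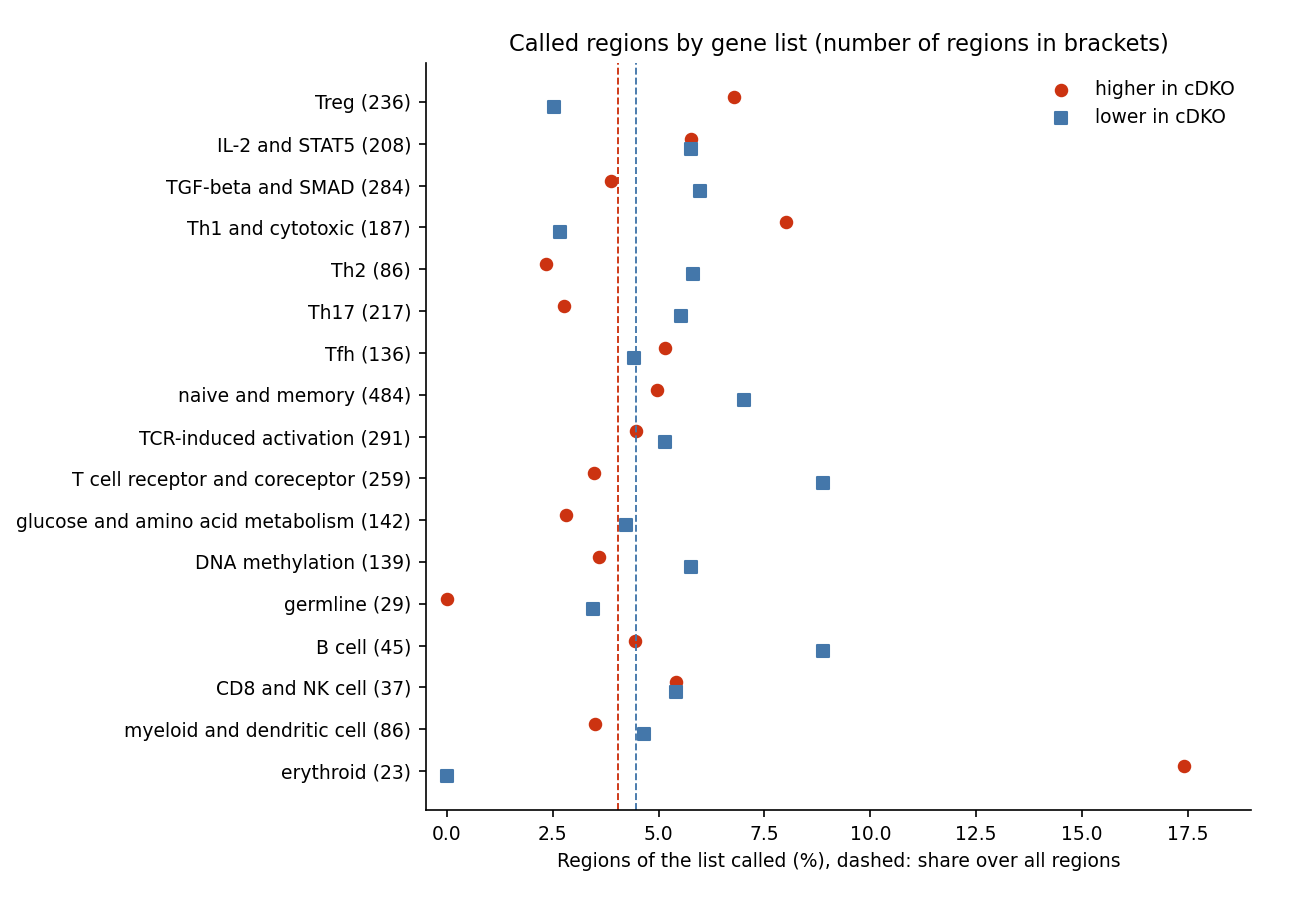
Percent of the regions assigned to each gene list (rows, number of regions in brackets) that were called higher (circles) or lower (squares) in cDKO with IL-2, and the same shares over all regions (dashed lines at 4.05% and 4.46%). Treg, Th1, Tfh and erythroid genes lie right of the line for higher and left of it for lower, and T cell receptor genes lie furthest right for lower among the lists with over 100 regions.

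Treg genes had 16 higher and 6 lower of 236 regions (6.78% and 2.54%), and 10 of the 22 genes had a higher region. Ikzf2, which encodes Helios, had 3. The best of them, chr1:69454026-69454301, lay 77 kb from the gene and ranked 37674 and 24867 in cDKO. Lrrc32, which encodes the latent TGF-β carrier GARP, also had 3. Nt5e, the ecto-enzyme CD73, had 1 higher region 9.96 kb away (39230 and 39365 in cDKO) and 2 lower regions, the better of which ranked 35509 and 50268 in control. A region near Tnfrsf9 ranked 45168 and 47010 in cDKO. Ctla4, an inhibitory receptor, had 2. On the other side, a region 9.73 kb from Nrp1 ranked 29136 and 16772 in control and was in no deposited cDKO list, though Nrp1 also had 2 higher regions. At Ikzf4, Capg and Il10, 1 region each was lower. Of the 16 higher Treg regions, 1 was also called higher without IL-2, and of all higher regions 19.6% were. Within 10 kb, 9 Treg regions were higher and 5 lower of 153 (5.88% and 3.27%). Of the 147 Treg regions listed by all 4 libraries, the median log2 rank shift was −0.07, against 0.02 over all 45470 regions.

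Th1 and cytotoxic genes had 15 higher and 5 lower of 187 regions (8.02% and 2.67%). Within 10 kb they had 8 and 5 of 110 (7.27% and 4.55%), so the lower share was then above that of all regions. In the CD8 and NK cell list, Cd8a and Cd8b1, which encode the CD8 chains, had a higher region each. Klra5 and Klrg1 of the same list had a lower region each. All of these lie on chromosome 6, and the part of other cell types in the Th1 counts was not tested. Eomes, a T-box factor of cytotoxic and memory cells, had 3 higher regions. The best, chr9:118405075-118405736, lay 72.8 kb away and ranked 32541 and 23042 in cDKO. The control libraries without IL-2 held it only far down their lists (83557 and 88154), and the cDKO libraries there ranked it 34191 and 27939. Fasl, the death ligand, had a region 1.43 kb away at ranks 35963 and 37377, and Il12rb1, a subunit of the IL-12 receptor, had one at 41644 and 37511. Runx3 and Tbx21, factors of the Th1 programme, had 3 and 2 higher regions. The 5 lower regions lay at Hopx (2), Stat4 (2) and Il12rb2 (1). A region 4.01 kb from Hopx ranked 32622 and 23809 in control. Near Il22, a cytokine gene beside Ifng that was counted in the Th17 list, a region ranked 35919 and 25789 in cDKO, and was called higher without IL-2 as well.

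Genes of IL-2 and STAT5 signalling had 12 higher and 12 lower of 208 regions, 5.77% each way. Ranks were less even. Over its 123 regions listed by all 4 libraries the median log2 rank shift was −0.13, against 0.02 over all regions. Of the 123, 1 ranked at least 2 times better in cDKO without overlap and 7 at least 2 times worse, beside 3.85% and 4.15% of all regions listed by all 4. Higher regions lay at the receptor gene Il2ra, at Jak1, Stat5b, Socs1 and Pim1, and near Lif (3 regions). The Stat5b region ranked 44147 and 54038. Lower regions lay at Il2, Socs2 and Socs3, and again at Jak1 and Stat5b. Bcl2 had 2 lower regions and 1 higher. A lower region in Bcl2, the survival factor, ranked 31124 and 33036 in control (chr1:106700616-106701217). One near Socs2, a feedback inhibitor of STAT5, ranked 33068 and 34913. Of its genes, 5 had regions called in both directions.

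TGF-β and SMAD genes had 11 higher and 17 lower of 284 regions (3.87% and 5.99%). The strongest higher region was inside Pmepa1, a TGF-β-induced inhibitor of the pathway, at 24673 and 28907 (chr2:173246822-173247229). The strongest lower region was inside Smad3, a signal transducer, at 24242 and 34116 in control (chr9:63711891-63712286). Tgfbr2, the type II receptor, had 3 lower regions and no higher one, and Tgfbr3 had 2 lower. Smad3 (2 and 2) and Ldlrad4 (4 and 4), another inhibitor, had as many higher as lower. Of the 17 lower regions, 8 were called lower without IL-2 too, where 28.2% of all lower regions were.

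T cell receptor and coreceptor genes had 9 higher and 23 lower of 259 regions (3.47% and 8.88%). Among these genes, Cd2, an adhesion receptor, and Ptprc, the phosphatase CD45, had 4 lower regions each, and Cd6 and Themis had 3 each. Ptprc also had 2 higher regions. A region inside Themis ranked 22889 and 36528 in control, and one inside Cd6 ranked 28563 and 31802. Cd4 had 2 higher regions and no lower one. None of the 12 promoters with a window was called, but 9 were listed in all 4 libraries, and such a region cannot be called. Calls at promoters were rare everywhere: of 9558 regions over a promoter window, 43 were higher and 45 lower.

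Naive and memory genes, the largest list, had 24 higher and 34 lower of 484 regions (4.96% and 7.02%). Foxp1 (9), Bach2 (6), Lef1 (5) and Bcl11b (4) carried most of the lower regions. The best Lef1 region, 16.4 kb from the gene, ranked 18661 and 28071 in control (chr3:131093748-131094060). Foxo1, which drives expression of homing receptors, went the other way with 5 higher and 1 lower. Tcf7 had both kinds close together: chr11:52294132-52294423 was lower (26671 and 31738 in control) and chr11:52296171-52296496 was higher (36313 and 34262 in cDKO). Ccr7, a homing receptor, had a higher region at 40289 and 33082. Of the 34 lower regions, 15 were called lower without IL-2 too, beside the 28.2% of all lower regions. Within 10 kb the list had 8 higher and 29 lower of 328 (2.44% and 8.84%), so its higher share went from above to below that of all regions.

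Activation genes had 13 higher and 15 lower of 291, with a lower region near Irf4 (28977 and 48501 in control) and a higher one near Fos (43280 and 40818 in cDKO). Th17 genes had 6 and 12 of 217 (2.76% and 5.53%), with 4 lower regions each at Il1r1 and Rora. Tfh genes had 7 and 6 of 136, among them a lower region 78.4 kb from Bcl6 at 22973 and 18519 in control. Th2 genes had 2 and 5 of 86 (2.33% and 5.81%), with 3 lower regions at Il4ra. Metabolic genes had 4 and 6 of 142, and all 4 higher regions lay at Bcat1 on chromosome 6. DNA methylation genes had 5 and 8 of 139, which include the Tet genes above and a higher region near Dnmt3b (41974 and 34542). Germline genes had 0 and 1 of 29.

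Lists for other cell types were short. B cell genes had 2 higher and 4 lower of 45 regions, and myeloid and dendritic cell genes 3 and 4 of 86. CD8 and NK cell genes had 2 and 2 of 37, all on chromosome 6, with the higher ones at Cd8a and Cd8b1 (64007 and 54415 in cDKO) and the lower ones at the NK receptor genes Klra5 and Klrg1. Erythroid genes had 4 higher and 0 lower of 23. These included 2 regions near Slc4a1, which encodes the red cell anion exchanger, and 1 near Tfrc, the transferrin receptor that dividing T cells also use. The regions near Slc4a1 lay 4.43 and 9.95 kb away and that near Tfrc 41.4 kb away, and no globin region was called.

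Among the 45470 regions that all libraries listed, ranks were compared directly. The median log2 shift was 0.02, and ranks did not overlap between genotypes for 10887 regions better in cDKO (23.9%) and 9632 worse (21.2%). Ranks at least 2 times better in cDKO without overlap were found for 1751 regions (3.85%), and at least 2 times worse for 1889 (4.15%). The widest separations towards cDKO fell largely on promoters. Spice1, a centriole protein gene, moved most: its region chr16:44357618-44358227 ranked 6675 and 10621 in control and 305 and 105 in cDKO, a log2 shift of 5.56. The fold over background there went from 14.78 and 12.01 in control to 20.7 and 20.2. The promoter of Napepld, an enzyme of lipid amide synthesis, went from ranks of 803 and 1031 to 91 and 88, with folds of 15.44 and 13.95 against 17.8 and 16.6. Phc2 (Polycomb), Limk2, Eepd1, Sar1a, Cdc42 and Lrrc27 made up the rest, all 6 at promoter windows. When peaks were ranked by fold, the Sar1a shift of 3.17 turned to −0.12 and the Napepld shift of 3.35 became 0.43.

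Regions that dropped in cDKO were led by Cldn34d, a claudin-like gene of a repeated family on chromosome X, from ranks of 94 and 34 to 2731 and 963. The promoter of Tle4, a Groucho corepressor, fell from 154 and 97 to 1371 and 1347, while its fold barely moved (11.97 and 10.93 in control, 11.2 and 10.7 in cDKO). Ranks near the top of a list change by large factors for small changes in signal, and these 2 regions lie there. So do all 8 regions named above as better in cDKO, Spice1 and Napepld among them, with cDKO ranks of 466 or better. Further down, a region inside Ubr2, a ubiquitin ligase gene, went from 2469 and 4479 to 35247 and 27173, with fold falling from 14.25 and 12.99 to 8.29 and 9.50. A region inside Mcph1 went from 2203 and 3863 to 43165 and 21984. A region 49.6 kb from Corin went from 2687 and 2904 to 27010 and 18044. The others were 1110004F10Rik, Sik3 and a region on an unplaced scaffold, all near the top with control ranks of 860 or better.

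The same genotypes were also cultured with TGF-β at 20 ng/mL and no IL-2, and these 4 libraries share none with the comparison above. The labels do not say whether the same mice gave cells to both cultures, and a part for shared mice was not tested. Control replicate 2 again had the shortest list (92488 peaks), the broadest peaks (median 272 bp) and the lowest median fold (7.725) of its 4 libraries. The 4 libraries without IL-2 were used to see where the called regions stood. Of the 3461 regions higher with IL-2, 62.4% were listed by both cDKO libraries without IL-2, against 25.1% by both control libraries. Of the 3808 lower regions, 44.3% were listed by both control libraries and 8.93% by both cDKO libraries. The same call was made without IL-2 for 677 higher regions (19.6%) and 1073 lower regions (28.2%). Over all 85403 regions those calls were made for 3.08% and 4.2%, and for regions listed by exactly 2 libraries but not called, for 6.12% and 5.14%. Leaving out chromosome 6 gave 18.5% and 28.1%.

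**Figure D4:**
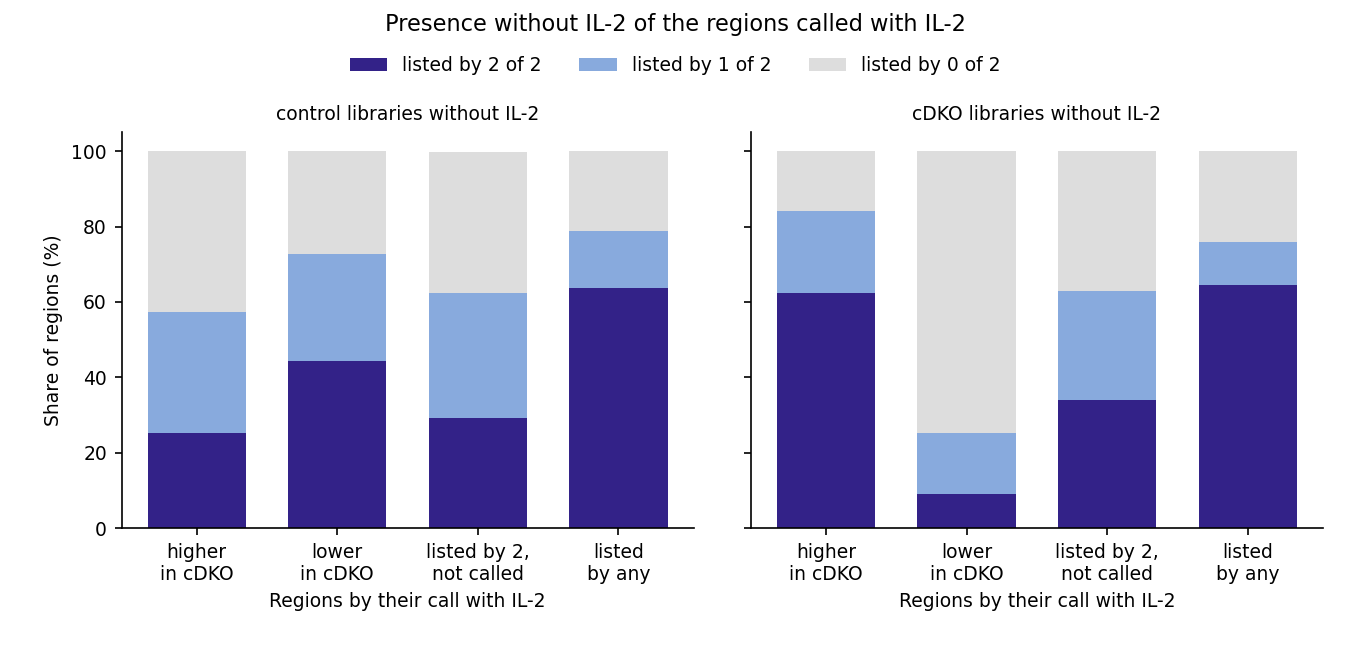
Share of regions (y axis, percent) that were listed by 2, 1 or 0 of the 2 control libraries (left) or cDKO libraries (right) cultured without IL-2, for regions grouped by their call with IL-2 (x axis). Regions lower in cDKO with IL-2 were in neither cDKO list without IL-2 in 74.8% of cases, and higher regions were in both in 62.4%.

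Of the higher regions 743 (21.5%) were listed by all 4 libraries without IL-2, while 245 (6.43%) of the lower regions were. This share was 16.4% for uncalled regions listed by exactly 2 and 55.4% over all regions. None of the 4 lists held 24.8% of the lower regions and 11.4% of the higher regions, beside 21.2% of the uncalled regions listed by exactly 2 and 14.3% of all regions. At Foxp1, 4 of the 9 lower regions had the same call, and at Hrh1 6 of the 9 higher regions. At Chst11 and Pde4d, none of the 5 higher or 7 lower regions did. Rank shifts followed the same pattern. Of the 1751 regions at least 2 times better ranked, 1721 were listed by all 4 libraries without IL-2, with a median log2 shift there of 0.61, and 81.8% had the same sign. Of the 1889 worse ranked, 1600 were, with a median of −0.84, and 91.0% had the same sign. Over all 40694 regions listed by all 4 libraries in both cultures, the median log2 shift without IL-2 was 0.035, and 52.8% had the same sign. Whether the genotype difference changes with IL-2 was not tested.

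Promoters were scarce among the called regions. A region was counted there if it held at least 150 bases of a RefSeq window. This held for 43 higher regions (1.24%) and 45 lower regions (1.18%), for 3.05% of the regions listed by exactly 2 libraries and not called, and for 19.3% of those listed by all 4. The share was 26.9% for regions whose rank was at least 2 times better in cDKO and 18.4% for those at least 2 times worse. The median width was 297 bp for higher regions and 368 bp for lower regions, on either side of the 320 bp of uncalled regions listed by exactly 2, and 627.5 bp for regions listed by all 4.

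The promoters that were called held few CpG dinucleotides. The median was 9 per window for higher regions and 8 for lower regions, against 21 for regions listed by exactly 2 libraries but not called and 22 for regions listed by all 4. Windows with under 10 CpG made up 51.2% and 62.2% of the called groups and 19% of the uncalled regions listed by 2. The Pde6h and C3 windows printed above are of this kind, and the Napepld and Tle4 windows have the CpG content of the constantly listed promoters. Over all 21263 RefSeq windows the median was 13, and 43.2% held under 10.

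**Figure D5:**
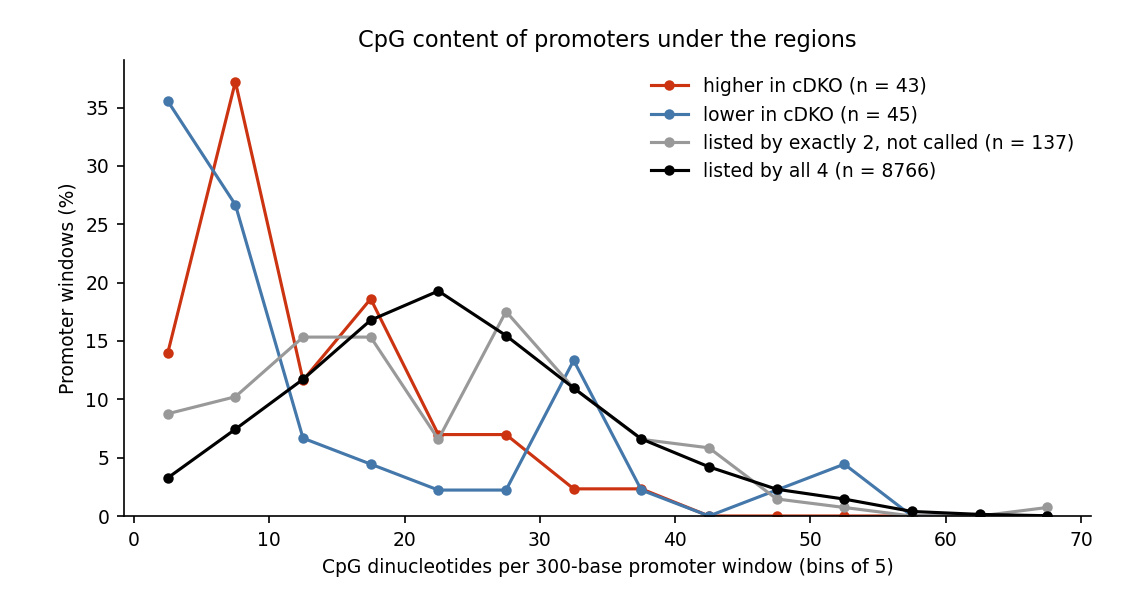
Distribution of CpG dinucleotides per 300-base RefSeq promoter window (x axis, bins of 5) as the percent of windows (y axis), for windows under regions called higher or lower in cDKO, listed by exactly 2 libraries without a call, or listed by all 4. The 2 called groups peak under 10 CpG and the group listed by all 4 peaks between 20 and 25.

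Pde6h, which encodes a photoreceptor phosphodiesterase subunit, had the best-ranked promoter among the higher regions, at 20156 and 30543 in cDKO and in no control list. The Meis1 promoter, of a homeobox factor, ranked 38165 and 29378, and Mettl7a1 37061 and 31449. Control libraries without IL-2 listed the Meis1 promoter at 49510 and 47327. Higher promoters further down included Isg15 and Ifit3, which respond to interferon, and P2rx7, an ATP receptor. Among lower regions, the promoter of Pla2g2e, a secreted phospholipase, ranked 28664 and 39048 in control. The promoter of Tlx3, a homeobox factor, ranked 41732 and 36115, and that of the complement gene C3 ranked 42834 and 30464. The full cDKO lists held weaker peaks at each of these. Pla2g2e was at 89299 and 90845, and replicate 2 held Tlx3 at 100974 and C3 at 97944. Lower promoters also included Tnfaip3 and Traf1, which act in NF-κB signalling, and Il1rn, the IL-1 receptor antagonist. These 6 further genes were picked after their values were seen. Gm6460, the best-ranked lower promoter (31516 and 27700), belongs to a repeated family, so its reads may come from copies. The full list of cDKO replicate 2 also held it, at 81899.

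Short motifs of 5 factor families were counted on both strands of the windows. The AP-1 letters TGACTCA (reverse TGAGTCA) were in 8 of 45 lower windows (17.8%) and 1 of 43 higher windows (2.33%), and in 4.66% of all windows. The RUNX letters TGTGGTT were in 4 lower and 1 higher, the CRE letters TGACGTCA in 1 and 2, the E-box CACGTG in 5 and 4, and the ETS letters CCGGAAG in 2 and 2. ETS letters were in 19.1% of windows under regions listed by all 4 and in 11.6% of all windows. A match is only a description of the letters, and with windows this few the counts are small.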

How the data were processed

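Per the labels, 8 libraries were made from cells labelled control or Tet1/3 cDKO, with TGF-β alone or with IL-2, 2 a group. Groups came from the sample titles. Tools are known from the submitters' processing notes alone, in which no step is tied to a tool: Bowtie2 2.4.1, ChIPseeker 1.18.0, DiffBind 2.10.0, HOMER 4.11.1, MACS2 2.2.7.1, Picard, SAMtools 1.3.1 and Trimmomatic 0.39, on build GRCm38 (mm10). How reads were shifted or deduplicated was not given in the sources used here. The authors deposited 1 peak list per library, whose columns give fold over background (a ratio), −log10 p-value and −log10 q-value for each peak. These are the authors' own values, used only to rank or describe peaks within a list. No list holds a q-value above 0.05. Read depth is unknown, so no counting interval is given.

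Lists were cut to 65811 peaks by −log10 p, which assumes that equal numbers of peaks are comparable. The union of all 8 lists gave 175276 regions (median width 250 bp). A region was assigned to the smallest coding gene body holding its midpoint, or else the nearest within 100 kb, from RefSeq GRCm38.p6, which matched 277 of 278 list genes. The table gives no exons, and no genome was used, so exonic or intronic position and sequence outside promoter windows were not analysed here. Promoter windows covered 17492 of 21887 coding genes. Steps ran in Python 3.11.15 with numpy 2.4.6 and pandas 2.3.3 and were tested on simulated lists.

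Members and gene lists were chosen with earlier results of these data known. Named regions followed a rule: Tet1, Tet3, Foxp3, Il2ra and Il2; per direction the 12 best strict regions by worst rank, the 8 widest rank separations, the 8 genes with most calls, up to 4 genes per list and up to 4 promoters. Genes with the most regions in a list and Tet2 were added after their values were seen. Alternatives were the deposited lists, lists of 32905, ranking by fold, a peak covering at least 50% of its region, a union of the 4 lists with IL-2, −log10 q of at least 3, assignment within 10 kb, and leaving out each library. Results for a few genes are not reported here.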

Additional observations from a re-analysis of the deposited data

Results flagged for a closer look

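A total of 24 regions were called higher in cDKO with IL-2 and lower in cDKO without it, and 16 were called lower with IL-2 and higher without it. The 24 make up 0.693% of the regions higher with IL-2 and the 16 make up 0.42% of those lower with it, whereas 4.2% of all regions were called lower and 3.08% higher without IL-2, so opposite calls were rarer than over all regions. They are listed because the genotypes went opposite ways in the 2 cultures, and that difference was not tested. The 24 include regions near Fgf2 and S100a8 and inside Dyrk1a and Kdm5c. The S100a8 region ranked 45793 and 65476 in cDKO with IL-2. The 16 include regions inside Cdc42, Plch2 and Pdlim1, and the Cdc42 region ranked 39125 and 37278 in control with IL-2. These genes were chosen after their values were seen.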

How the results depend on the processing

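No paired analysis was possible because the calls come from no test and the labels tie no replicate number to an animal. With the deposited lists in full, 6350 regions were higher and 1633 lower, and 16 gene lists had more higher and 0 more lower regions. Of chromosome 6 regions 7.63% were then called, beside 4.57% higher and 1.18% lower over all regions. The same call without IL-2 was made for 8.13% of higher and 31.0% of lower regions, and 0.674% of lower regions covered a promoter window. The Jaccard index within genotypes exceeded that between them by 0.0125 in place of 0.0587. With lists of 32905 peaks there were 1891 higher and 2024 lower regions, 1102 ranked at least 2 times worse, the same call for 21.4% of higher regions, and promoter windows under 3.86% of higher and 1.98% of lower regions. Ranked by fold, 3195 regions ranked at least 2 times better, 8 lists had more higher and 7 more lower regions, and the Sar1a shift was −0.12. Requiring absence from the other genotype's deposited lists left 736 and 646. Leaving out 1 library gave 5965 to 7611 higher and 5075 to 9792 lower regions, 2113 to 3351 ranked better and 2351 to 3244 ranked worse, and 3 to 8 lists with more higher and 6 to 13 with more lower regions. A call then needs fewer libraries, so counts rise by construction. The cause of the other changes was not tested. Without control replicate 2, 5965 were higher and 8148 lower. Of 47 named regions, at least 39 kept their call under each alternative that gave them a value, and 6 lost it with the deposited lists. Keeping it was partly fixed in advance. The strict regions were chosen for absence from the other genotype's deposited lists, and regions listed by all 4 libraries have the same ranks there. With the deposited lists, only called promoters outside the strict set could lose it. All of these did, and they are the 6: Meis1, Ankef1, Gm6460, Pla2g2e, Tlx3 and C3. Leaving out a library cannot remove a call either. Of 34 counts of called regions per gene list, 22 moved by over 1.5 times with lists of 32905, 19 with the deposited lists, 15 with assignment within 10 kb, 11 ranked by fold, and 12 to 32 when 1 library was left out. Read depth is not in the lists, so its part in the short list of control replicate 2 was not tested.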

Other observations

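Outside chromosome 6, calls also gathered in other 250-kb windows. Those given here were chosen after their values were seen, as the windows with the most calls in a direction, with ties going to the window with fewer regions, so other windows may hold 5 calls as well. The window at Il1rn, Il1f10 and Psd4 on chromosome 2, which holds genes of the IL-1 family, had 6 lower and 1 higher of 18 regions in cDKO with IL-2. Of those 6, 3 had the same call without IL-2, and none was in the cut list of either cDKO library without IL-2. Beside Basp1 on chromosome 15, 5 of 21 regions were lower and 1 was higher, with 3 of the 5 called again without IL-2. Beside Tent5a on chromosome 9, 5 of 15 were lower and 2 higher, and none of the 5 had the same call without IL-2. At Abca1, the cholesterol exporter gene, 5 of 21 were lower and 3 higher. Windows with 5 higher regions included those at Bcas1 (of 25, with 1 lower), at Ppp2r5a and Nenf (of 27, with 0 lower), at the cytokine gene Lif with Hormad2 (of 34, with 0 lower), and at Lrrc32 with Emsy (of 36, with 1 lower). In each of these 4 windows, 1 or 2 of the higher regions had the same call without IL-2.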
